A study of Mus musculus with 12 samples.

Results

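Mitochondrial ribosomal protein genes were compared between the muscle of mice carrying an AMPK gamma3 transgene and that of wild-type mice. The genes were chosen by name: every gene whose only symbol in the array's annotation begins with Mrpl or Mrps and a digit. The rule found 74 of the 12393 genes named on the array, 47 with an Mrpl and 27 with an Mrps symbol. Proteins of this ribosome with other symbols, such as Dap3 and Ptcd3, were missed by the rule and are not members. Each gene was represented by the probe set with its highest mean log2 intensity over all 12 arrays. These 74 genes have 127 probe sets in all, 33 genes having more than 1. The RefSeq table lists 78 protein-coding genes with such symbols. A further 3 probe sets paired with an Mrp symbol and a second gene were left out, and Mrpl30 and Mrpl53 have no other probe set.

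The mice were 12 C57BL/6 males of generation F5, 17 to 18 weeks old and fasted overnight. The 6 transgenic mice (1 to 6) carried AMPK gamma3 with the R225Q substitution, and the 6 wild-type littermates (7 to 12) did not. RNA came from white gastrocnemius, the paler and mostly fast-fibred region of that calf muscle, and each animal's biotin-labelled total RNA was hybridised to its own Affymetrix MOE430A array. AMPK is a kinase that senses the energy state of the cell, and gamma3 is a regulatory subunit found mainly in fast, glycolytic skeletal muscle. The labels name neither the promoter that drives the transgene nor the number of founder lines, and the transgene's own messenger was not analysed here. The 10 fast glycolytic fibre markers, which should define this tissue, had a mean log2 intensity between 13.30 and 13.46 on all 12 arrays.

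Mitochondria have their own ribosome, which makes a small set of proteins encoded in mitochondrial DNA, all of them core subunits of the respiratory chain and of ATP synthase. Every protein of that ribosome is encoded in the nucleus, made in the cytosol and imported. It has a small subunit, which binds the messenger and reads its codons, and a large subunit, which joins amino acids and threads the new chain to the inner membrane. Some of its proteins have counterparts in bacterial ribosomes and others were added in the mitochondrial lineage. The symbols do not map exactly onto the subunits: Mrps30 and Mrps18a sit in the large subunit, and Mrps36 is now regarded as a component of the 2-oxoglutarate dehydrogenase complex. By known location the list held 49 large subunit genes, 24 small subunit genes and Mrps36.

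Promoters of these genes are shown first, because short sequences recur there that the choice by name did not use. RefSeq promoter windows (build GRCm38.p6), each running from 250 bases before a transcription start to 50 bases after, were matched for 65 of the 74 members. Letters were searched on both strands. CCGGAAG, a site of the ETS family that includes the respiratory gene activator GABP, was in a window of 24 of the 65 members (36.9%), against 9.93% of the 27025 genes in the table and 16.4% of the 9882 of them measured on the array. AAGATGGC, a form of the YY1 site, was in 11 members (16.9%), against 3.19% of all genes and 4.39% of those measured. GCGCATGC, the core of the NRF1 site, which overlaps its own reverse complement, was in 8 members (12.3%), against 3.05% and 5.01%. TCAAGGTCA, a site of the estrogen-related receptors, was in 0 members and in 0.466% of all genes. At least 1 of the 4 was in 36 members (55.4%), against 15.3% of all genes. The share among measured genes, the higher one for each of the letters found in members, was not taken for this count. The most similar gene groups held them too: CCGGAAG was in 24.2% of 62 oxidative phosphorylation genes and 50% of 42 cytosolic ribosomal protein genes, AAGATGGC in 14.5% and 9.52%, and GCGCATGC in 12.9% and 4.76%. These matches describe letters in a window and are not evidence that a factor is bound.

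These 3 promoters are printed on the strand of the gene, 5′ to 3′, with the matched letters in capitals. Mrps12 (chr7:28741772-28742071, minus strand) and Mrps18a (chr17:46110754-46111053, plus strand) are among the members with the largest positive fold changes and hold both CCGGAAG and AAGATGGC, the latter on the opposite strand in Mrps12. Mrpl9 (chr3:94443086-94443385, plus strand) has a negative fold change and holds the NRF1 core on both strands. The 3 are examples and do not stand for the members. Of the 8 members with the NRF1 core 6 had a positive fold change, and Mrpl55, with the largest fold change, held none of the letters searched.
Mrps12: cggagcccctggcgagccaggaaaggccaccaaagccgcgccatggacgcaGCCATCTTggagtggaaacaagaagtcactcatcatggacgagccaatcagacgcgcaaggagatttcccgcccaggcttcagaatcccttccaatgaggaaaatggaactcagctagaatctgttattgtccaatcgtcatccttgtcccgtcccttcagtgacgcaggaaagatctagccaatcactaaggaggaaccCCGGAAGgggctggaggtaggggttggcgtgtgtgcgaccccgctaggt
Mrps18a: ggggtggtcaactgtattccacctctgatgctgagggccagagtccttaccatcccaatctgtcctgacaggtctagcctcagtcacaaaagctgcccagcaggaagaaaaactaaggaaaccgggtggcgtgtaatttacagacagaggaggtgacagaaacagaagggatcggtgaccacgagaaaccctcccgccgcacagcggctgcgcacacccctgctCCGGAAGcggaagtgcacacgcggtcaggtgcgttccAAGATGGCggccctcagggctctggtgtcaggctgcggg
Mrpl9: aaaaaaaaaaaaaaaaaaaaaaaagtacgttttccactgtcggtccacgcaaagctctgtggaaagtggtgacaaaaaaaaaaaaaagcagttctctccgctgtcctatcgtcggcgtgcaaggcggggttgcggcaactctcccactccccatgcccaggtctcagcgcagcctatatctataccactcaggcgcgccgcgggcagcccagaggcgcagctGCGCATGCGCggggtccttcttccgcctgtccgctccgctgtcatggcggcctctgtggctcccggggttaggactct

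Matches were also located by their distance from the start. Of 28 CCGGAAG matches in member windows, 23 (82.1%) began within 60 bases of the start, against 60.8% of the 3485 matches in all windows. For AAGATGGC the counts were 8 of 11 (72.7%), against 52.9% of 927, and for GCGCATGC 7 of 14 (50%), against 54.4% of 1306. In 7 members (10.8%) the AAGATGGC letters lay on the coding strand just after the start, an arrangement found in 280 genes of the table (1.04%). The share among measured genes was not taken here. Their sites, with 8 bases on each side (6 after it in Mrps24, where the window ends) and the match in capitals, are printed in order of distance from the start, which ran from 11 bases in Mrps18a to 36 bases in Mrps24.
Mrps18a: tgcgttccAAGATGGCggccctca
Mrpl49: gaggcgccAAGATGGCagcagcgg
Mrps7: cagcggccAAGATGGCtgcccccg
Mrpl35: caggctgcAAGATGGCggcttcca
Mrpl37: cacgggcaAAGATGGCggcgtcca
Mrpl42: attgaagcAAGATGGCgagcgcgc
Mrps24: gccggcccAAGATGGCgtggtc
The log2 fold changes of these 7 genes ran from 0.0048 in Mrps7 to 0.17 in Mrps18a. The median log2 fold change was 0.084 in the 24 with CCGGAAG and 0.067 in the other 41, 0.095 in the 11 with AAGATGGC and 0.070 in the other 54, and 0.066 in the 8 with GCGCATGC and 0.076 in the other 57. The differences were not tested.

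In transgenic muscle the mitochondrial ribosomal protein genes were mostly at slightly higher levels, and none passed the test by itself. The log2 fold change (transgenic over wild type) was positive in 63 of 74 members (85.1%), against 49.4% of all 12393 genes. Its median was 0.068, a difference of 4.83%, and it ran from -0.08 in Mrpl1 to 0.20 in Mrpl55. The median over all genes was -0.0013. In limma, 0 members had an adjusted p under 0.05, the smallest being 0.686, where 0.0888% of all genes passed. At an unadjusted p under 0.05, 10 members (13.5%) were higher in transgenic muscle, against 2.63% of all genes, and 0 were lower, against 2.28%. The exact permutation test over the arrays put 12 members higher (3.17% of all genes) and 0 lower (2.54%) at that threshold, and likewise 0 past it after adjustment. No member had groups of arrays that did not overlap, where 0.533% of all genes did. A fold change above 0.1 was found in 21 members (28.4%; 8.23% of all genes) and one below -0.1 in 0 members (7.93%). Fold changes are differences between means of log2 intensity, given with limma's standard error (SE). In a bulk sample, fewer cells of a type and less RNA per cell cannot be told apart.

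**Figure D1:**
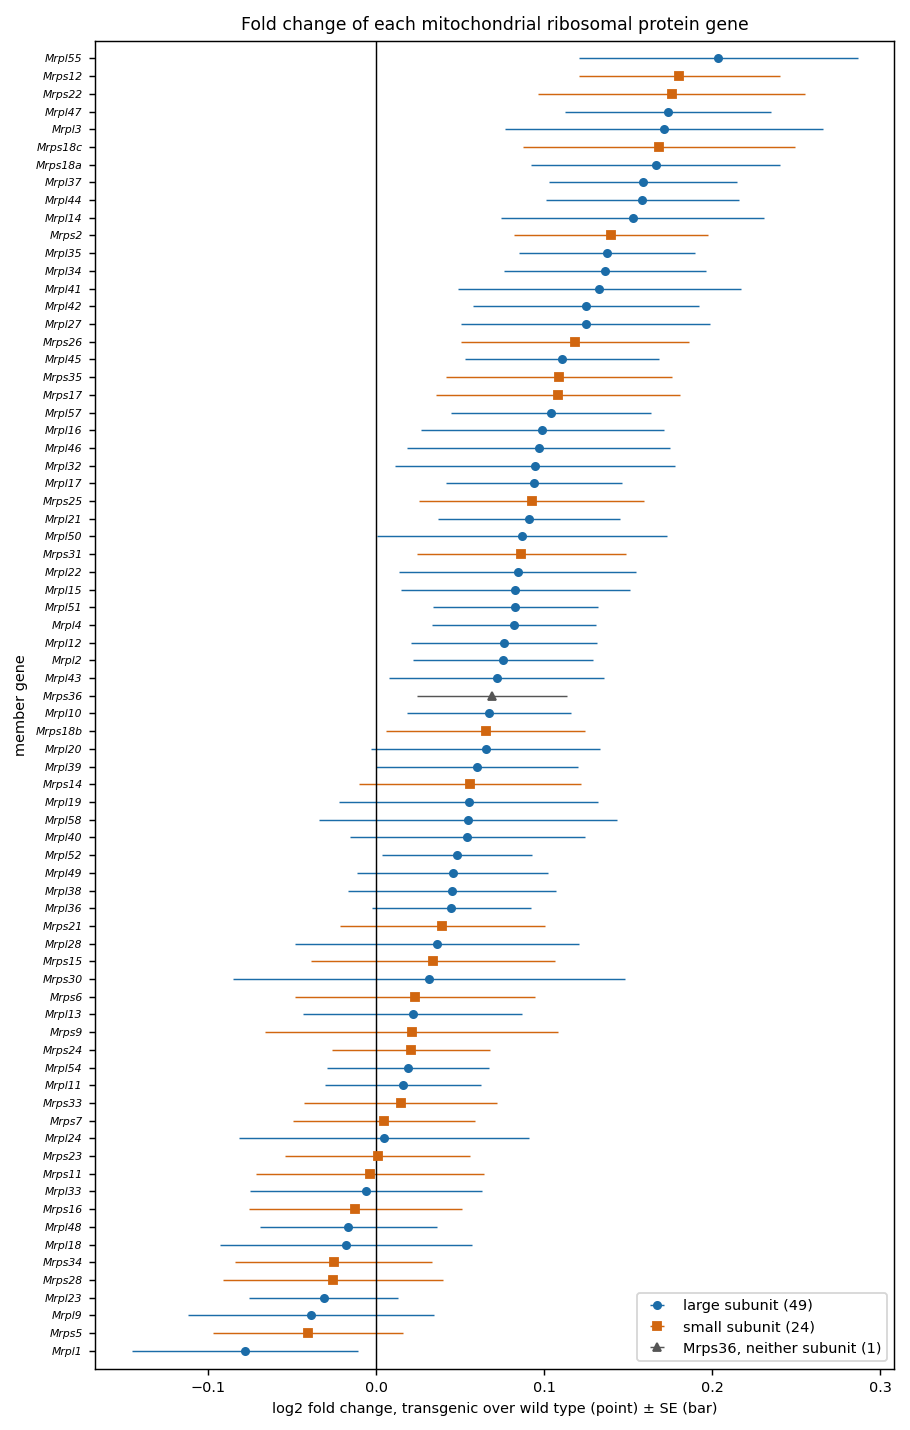
Log2 fold change of each of the 74 genes (points; transgenic over wild type, 6 arrays each) with its standard error (bars), ordered by size, in large subunit genes, small subunit genes and Mrps36. 63 points lie above 0, and the whole range runs from -0.08 to 0.20.

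Positive values were in the majority in both subunits. Of the 49 large subunit genes 43 had a positive fold change, with a median of 0.076, and of the 24 small subunit genes 19, with a median of 0.037. By origin, 37 of the 46 members with a bacterial counterpart were positive (median 0.065), as were 26 of the 28 without one (median 0.077). The split into both properties gave medians of 0.079 for 30 large subunit genes of bacterial type, 0.072 for 19 that are specific to mitochondria, 0.029 for 16 small subunit genes of bacterial type and 0.090 for 8 that are specific to mitochondria. Mrps28 was placed among the bacterial types after its values had been seen. No difference between these classes was tested.

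In the small subunit, Mrps12 had the smallest limma p of all members. Its product is the counterpart of bacterial protein S12, which lines the decoding centre where codons are read. Log2 intensities of Mrps12 had a lowest value, median and highest value of 8.90, 9.01 and 9.12 in transgenic muscle and 8.64, 8.86 and 8.92 in wild-type muscle. Of the 6 transgenic arrays 5 lay above the highest wild-type array, and the groups overlapped only through the lowest transgenic one. The log2 fold change was 0.18 ± 0.06 (SE), with an adjusted p of 0.686 in limma and an exact two-sided permutation p of 0.0065 over the 924 regroupings of these arrays, not adjusted for the number of genes. In the same permutation test the unadjusted p was 0.0043 for Mrpl37 and 0.0065 for Mrpl35. The suffix of the Mrps12 probe set is the one the manufacturer gives to sets whose probes match more than 1 transcript. Other transcripts may therefore add to its signal.

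The 3 paralogs of bacterial S18 all had positive fold changes. A bacterial ribosome has 1 such protein, whereas mammals encode Mrps18a, b and c, of which the first is built into the large subunit. Mrps18c had values of 8.21, 8.49 and 8.72 (lowest, median, highest) in transgenic muscle and 8.15, 8.31 and 8.45 in wild-type muscle, a log2 fold change of 0.17 ± 0.08. Mrps18b had 8.63, 8.75 and 8.86 against 8.62, 8.65 and 8.80, a log2 fold change of 0.07 ± 0.06. Both pairs of groups overlapped, and both adjusted p-values in limma were 0.999. For Mrps18a the values were 9.30, 9.42 and 9.58 against 9.004, 9.32 and 9.41, with all 6 transgenic arrays above the wild-type mean and 3 of them above the highest wild-type array. Its log2 fold change was 0.17 ± 0.07 (adjusted p 0.999 in limma).

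Of the 24 small subunit genes, 13 had a fold change between -0.05 and 0.05. That count was not made over all genes or the large subunit, so it cannot be read as a trait of the small subunit. Mrps5, whose bacterial counterpart S5 affects the accuracy of decoding, had 7.03, 7.24 and 7.28 in transgenic and 7.12, 7.28 and 7.33 in wild-type muscle, a log2 fold change of -0.04 ± 0.06. Mrps28 was at -0.03 ± 0.07 and Mrps34 at -0.03 ± 0.06, and in each of these genes 1 transgenic array was above both the wild-type mean and the highest wild-type array while the other 5 were below the wild-type mean. Small subunit genes Mrps2 and Mrps22, with Mrpl34 of the large subunit, are named because they complete the 10 with an unadjusted p under 0.05, and were picked after their values were seen. Mrps2 had a log2 fold change of 0.14 ± 0.06 (adjusted p 0.907 in limma) and Mrps22 of 0.18 ± 0.08 (0.999), with all 6 transgenic arrays above the wild-type mean for each. The second probe set of Mrps2 gave 0.15 ± 0.05.

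Large subunit genes made up the rest of the 10. Mrpl37, a protein specific to the mitochondrial ribosome, had log2 intensities of 8.23, 8.30 and 8.43 (lowest, median, highest) in transgenic muscle and 8.01, 8.19 and 8.25 in wild-type muscle. Only the lowest transgenic array lay below the highest wild-type one. The log2 fold change was 0.16 ± 0.06, with an adjusted p of 0.747 in limma, and its probe set has the same shared-transcript suffix as that of Mrps12. Mrpl47, the counterpart of bacterial L29 at the exit of the peptide tunnel, had 7.04, 7.30 and 7.34 against 6.91, 7.10 and 7.15. Here, too, 5 of 6 transgenic arrays were above the highest wild-type array, transgenic 2 being the exception. Its log2 fold change was 0.17 ± 0.06 (adjusted p 0.747 in limma).

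Mrpl44, which has the fold of a ribonuclease III enzyme, showed a similar pattern with 8.49, 8.63 and 8.75 in transgenic and 8.33, 8.48 and 8.61 in wild-type muscle. Again 5 transgenic arrays were above the highest wild-type array, and the log2 fold change was 0.16 ± 0.06 (adjusted p 0.776 in limma). The dimmer probe sets of Mrpl44 gave 0.03 ± 0.11 and 0.08 ± 0.08. Mrpl35, the counterpart of bacterial L35, had 9.19, 9.30 and 9.41 against 9.05, 9.17 and 9.21. In that gene 4 transgenic arrays lay above the highest wild-type array and 5 wild-type arrays below the lowest transgenic one. The log2 fold change was 0.14 ± 0.05 (adjusted p 0.819 in limma), while the dimmer probe set of Mrpl35 gave -0.02 ± 0.06. The largest fold change, in Mrpl55, was less precise. Its values were 8.71, 8.91 and 9.04 against 8.35, 8.73 and 8.88, with 3 transgenic arrays above every wild-type array, and gave 0.20 ± 0.08 (adjusted p 0.907 in limma). Mrpl34 stood at 0.14 ± 0.06 (adjusted p 0.992 in limma), and its dimmer probe set at -0.02 ± 0.12.

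**Figure D2:**
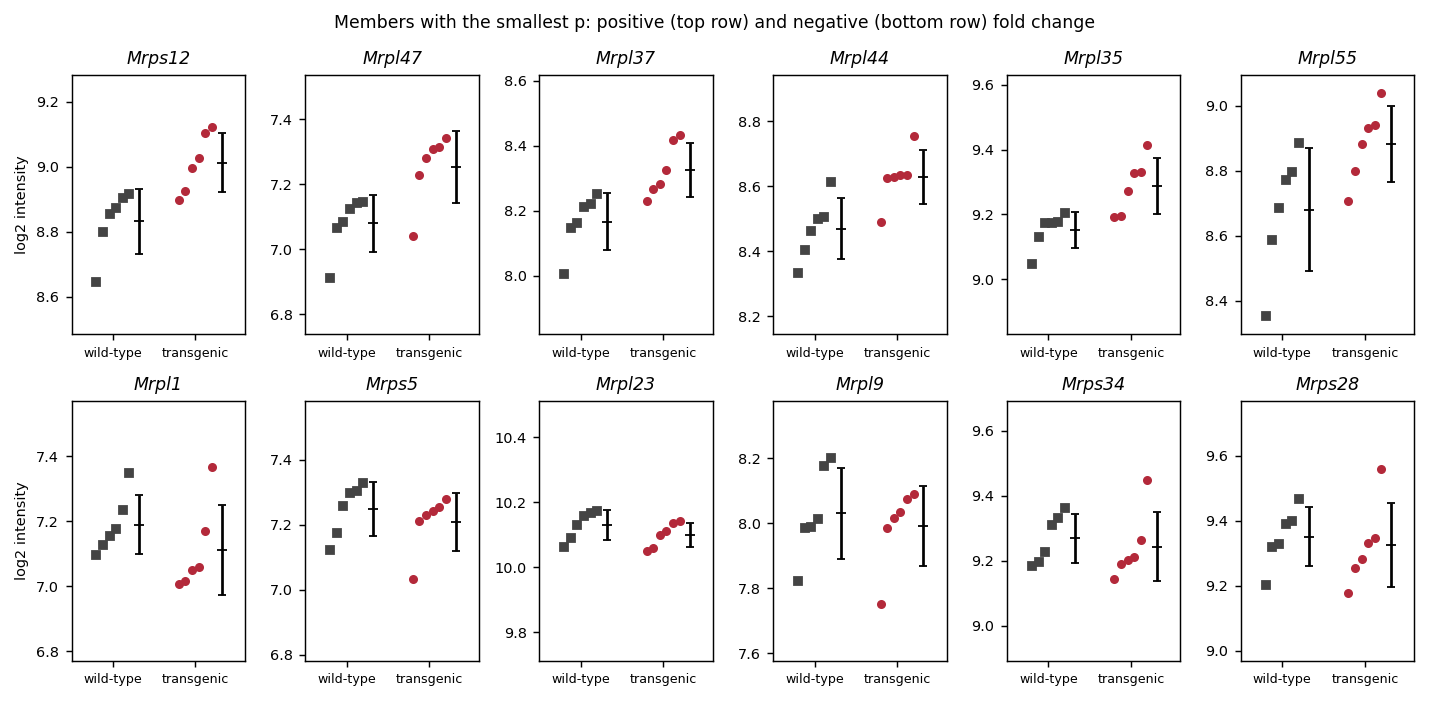
Log2 intensity on each array (points; wild type grey squares, transgenic red circles, 6 each, ordered by value) with the mean and SD beside each group, for the 6 positive and the 6 negative members with the smallest p. All panels span the same number of log2 units. In the top row the groups are offset but overlap in every gene, and in the bottom row they lie at nearly the same height.

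Large subunit genes for a stalk and for the membrane anchor had small positive values, whereas Mrpl1 and Mrpl23, described below, were negative. The stalk that recruits translation factors is built from Mrpl10, Mrpl11 and Mrpl12, whose log2 fold changes were 0.07 ± 0.05, 0.02 ± 0.05 and 0.08 ± 0.06. Mrpl45, which anchors the ribosome to the inner membrane, had 8.18, 8.27 and 8.49 in transgenic and 8.08, 8.19 and 8.27 in wild-type muscle, a log2 fold change of 0.11 ± 0.06 (adjusted p 0.999 in limma). Mrpl58, a peptidyl-tRNA hydrolase that can free stalled chains and is also a fixed part of the subunit, was at 0.05 ± 0.09. Mrps36, which belongs to neither subunit, had a log2 fold change of 0.07 ± 0.04, with all 6 transgenic arrays above the wild-type mean.

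Among the 11 negative members, the most negative was Mrpl1, the counterpart of the protein of the bacterial L1 stalk, through which spent transfer RNA leaves. Its values were 7.01, 7.05 and 7.37 in transgenic and 7.10, 7.17 and 7.35 in wild-type muscle. Of the transgenic arrays, 4 lay below every wild-type array and 1 above every one. The log2 fold change was -0.08 ± 0.07 (adjusted p 0.999 in limma). Mrpl23, counterpart of bacterial L23 at the tunnel exit, was at -0.03 ± 0.04 and Mrpl9 at -0.04 ± 0.07. None of the 11 had an unadjusted p under 0.05.

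Members differed in their spread between mice. The median SD within genotype was 0.109 log2 units over the members and 0.120 over all genes. Spread was widest in Mrps30, Mrpl3 and Mrpl58 and narrowest in Mrpl52, Mrpl23 and Mrps36. Mrps30 ran from 7.94 to 8.85 in transgenic and from 8.17 to 8.52 in wild-type muscle, a log2 fold change of 0.03 ± 0.12 whose 95% interval reached from -0.22 to 0.28. For Mrpl52 all 6 transgenic arrays were above the wild-type mean, although its log2 fold change was only 0.05 ± 0.04. All 6 transgenic arrays exceeded the wild-type mean in 14 members, and at least 5 did in 38. The same counts were not made over all genes, so how unusual they are cannot be said.

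Probe sets of the same gene did not always give the same sign. Over all 127 member probe sets 95 were positive, with a median log2 fold change of 0.050, and 11 had an unadjusted p under 0.05 and were higher, against 2.20% of all probe sets, while 0 were lower, against 2.43%. Of the 33 genes with several probe sets, 12 had only positive values, 2 only negative values and 19 both. In 4 genes the probe sets had both signs and were more than 0.2 apart. Mrpl3, the counterpart of bacterial L3 near the peptidyl transferase centre, ran from -0.11 to 0.17, Mrpl41 from -0.08 to 0.19, Mrpl52 from -0.15 to 0.08 and Mrpl1 from -0.08 to 0.12. Some of these extremes came from sets below the median probe set (6.65). The wild-type mean was 6.58 for the -0.11 of Mrpl3, 5.68 for the -0.08 of Mrpl41 and 4.05 for the 0.08 of Mrpl52. It was 8.02 for the -0.15 of Mrpl52 and 6.66 for the 0.12 of Mrpl1. In all 19 genes with both signs the direction rests on the choice of the brightest probe set. That set gave 0.17 ± 0.09 for Mrpl3 and 0.13 ± 0.08 for Mrpl41. Mrpl34, Mrpl35 and Mrps5 are also among the 19. For Mrps5 the chosen set gave -0.04 ± 0.06 and the other, of nearly the same brightness, 0.01 ± 0.06.

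Averaged over the 74 genes, the transgenic mice were unlike each other while the wild-type mice were closely alike. The mean log2 intensity on transgenic arrays 1 to 6 was 8.69, 8.60, 8.69, 8.72, 8.61 and 8.54, and on wild-type arrays 7 to 12 it was 8.54, 8.57, 8.58, 8.57, 8.57 and 8.60. Transgenic 1, 3 and 4 stood clear of every wild-type array, transgenic 2 and 5 were just above the highest one, and transgenic 6 was among the lowest. The group means were 8.64 ± 0.067 and 8.57 ± 0.019 (SD, n = 6). Counting genes gave the same picture: 62, 66 and 66 members were above their wild-type mean in transgenic 1, 3 and 4, 44 and 46 in transgenic 2 and 5, and 30 in transgenic 6. Transgenic 4 was the highest of the 12 arrays in 22 members (29.7%, against 8.50% of all genes). Transgenic 1 was so in 18 (24.3%, against 15.2%) and transgenic 6 in 0 (against 7.26%).

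**Figure D3:**
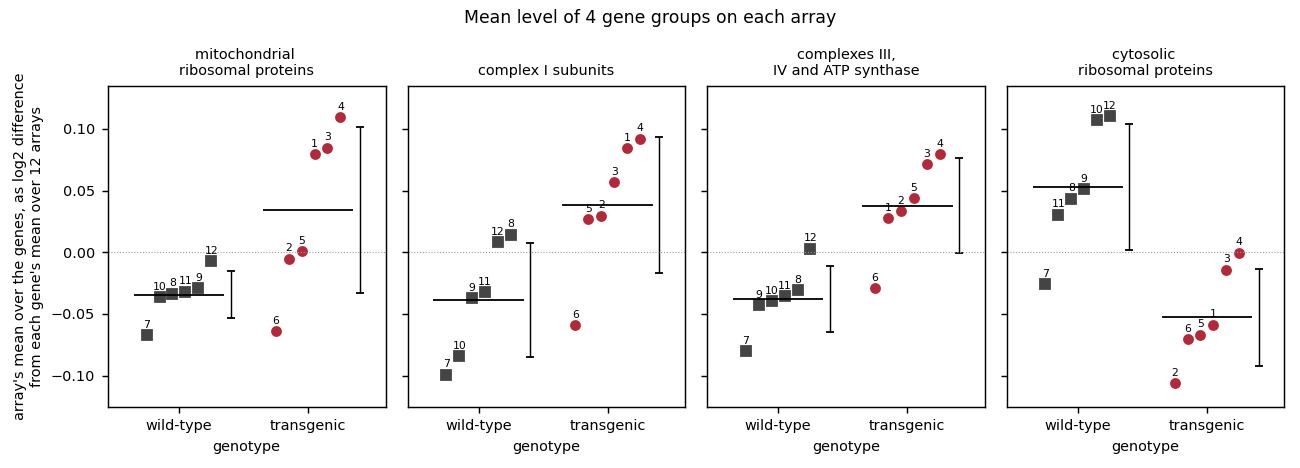
Mean over the genes of each of 4 groups on each array, as the log2 difference from each gene's mean over the 12 arrays, with array numbers, group means (lines) and SD (bars). In the first 3 panels transgenic 4 is highest in its group and transgenic 6 lowest, while for cytosolic ribosomal proteins the transgenic arrays lie mostly below the wild-type arrays.

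Arrays were hybridised on 2 days with 3 of each genotype on each, and 2 arrays, transgenic 1 and wild-type 7, came from a second chip lot. Genotype was unbalanced over the 4 runs inferred from hybridization times. Runs 1 and 4 held 1 transgenic and 2 wild-type arrays, and runs 2 and 3 held 2 and 1. Transgenic 1, 3, 4 and 6 were in runs 2 and 3. The difference in the member mean was 0.0965 on day 1 and 0.0407 on day 2, and 0.0530 over the 10 arrays of the larger lot. Within runs 1 to 4 it was 0.0431, 0.116, 0.0547 and 0.0227, each with 1 genotype on a single array. On day 1, 64 members had a positive fold change, against 47.5% of all genes, and on day 2, 56, against 53.2%. Of the members 50 were positive on both days and 4 negative on both, a count not made over all genes. Wild-type 7 was the lowest array in 25 members (33.8%, against 14.3% of all genes). Correlation with the rest was weakest, on average, for this pair (mean r 0.9902 for transgenic 1 and 0.9888 for wild-type 7) and a log2 difference between 3′ and 5′ Gapdh probe sets, a measure of RNA integrity, of 0.185 and 0.184, against -0.0944 to -0.00174 on the other 10. Without both, 56 members were positive, against 54.2% of all genes, and the member median was 0.055. Of these 56, 54 were also positive over all arrays.

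**Figure D4:**
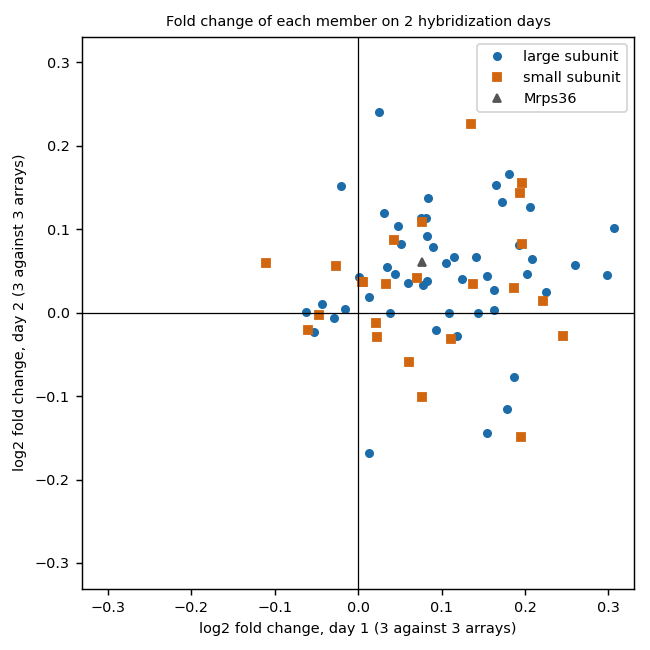
Log2 fold change of each member on day 1 (horizontal) and on day 2 (vertical), each from 3 transgenic and 3 wild-type arrays. Most points lie to the upper right, where 50 of the 74 members are positive on both days, and 4 lie in the lower left.

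Markers of other cells and fibres were measured beside these genes. All 9 endothelial markers were higher in transgenic muscle, with a median log2 fold change of 0.19 and 6 at an unadjusted p under 0.05, and their mean level ran from 7.63 to 7.88 in transgenic and from 7.52 to 7.69 in wild-type muscle. Slow and oxidative fibre markers were positive in 2 of 12, with a median of -0.44, and their mean level ran from 8.24 to 8.98 and from 8.23 to 9.45. Adipocyte markers were positive in 0 of the 5 measured (median -0.52, mean level 6.82 to 7.50 and 7.33 to 8.08), and fibroblast and matrix markers in 0 of 8 (median -0.12, 9.04 to 9.43 and 9.13 to 9.53). On day 1 and day 2 the medians were 0.22 and 0.081 for endothelial, -0.64 and -0.17 for slow fibre, -0.094 and -0.73 for adipocyte and -0.0072 and -0.16 for fibroblast and matrix markers. Macrophage markers were positive in 4 of 7 measured (median 0.015, 6.89 to 7.14 and 6.86 to 7.12) and Schwann cell markers in 3 of 4 (median 0.055, 7.21 to 7.72 and 7.32 to 7.56). No gene of these lists passed the adjusted test, and none of their markers is at 0 on this scale. Their part in the result was not tested.

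Lists of the machinery around the ribosome had medians from -0.040 to 0.076, and that of translation factors also held parts of the ribosome itself. Of its 15 measured genes among 23 listed, 12 were positive, with a median log2 fold change of 0.076. They include the ribosomal proteins Dap3 (0.05 ± 0.05), Ptcd3 (0.09 ± 0.07), Gadd45gip1 (0.06 ± 0.08) and Chchd1 (0.03 ± 0.07), which the choice by name missed. Its median is therefore not a measure of translation factors alone. Mtif2, the initiation factor, was at 0.23 ± 0.10 (adjusted p 0.982 in limma) and Oxa1l, the insertase that takes new chains into the inner membrane, at -0.12 ± 0.06 (0.999). Mitoribosome assembly genes were positive in 7 of 14 measured (24 listed; median 0.0016). Nsun4, which methylates the small ribosomal RNA and helps to join the subunits, was the exception, at 0.15 ± 0.05 with groups of arrays that did not overlap (adjusted p 0.702 in limma).

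Mitochondrial aminoacyl-tRNA synthetases, which charge the transfer RNAs, were positive in 5 of 10 measured (19 listed; median 0.0012), with Fars2 at 0.12 ± 0.07. Genes that maintain and transcribe mitochondrial DNA were positive in 12 of 16 (21 listed; median 0.043), led by the termination factor family member Mterf2 at 0.30 ± 0.09 (adjusted p 0.590 in limma), while Pnpt1, a mitochondrial polynucleotide phosphorylase, was at 0.11 ± 0.06. Nuclear regulators of mitochondrial genes were positive in 2 of 12 (14 listed; median -0.040). The corepressor Nrip1 was at -0.35 ± 0.11 (adjusted p 0.649 in limma) and Hcfc1 at 0.09 ± 0.06. In limma, 0 genes of these lists passed the adjusted test, and 0 to 1 per list were higher or lower at an unadjusted p under 0.05.

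Respiratory chain genes, whose products assemble with those made on this ribosome, had values of the same size. Complex I subunits were positive in 33 of 34, with a median log2 fold change of 0.068, and subunits of complexes III and IV and ATP synthase in 35 of 40, with a median of 0.072. At an unadjusted p under 0.05, 5 and 8 of them were higher and 0 lower. Genes of the cytosolic ribosome mostly had lower levels in transgenic muscle: 44 of 48 were negative, with a median of -0.10, and 20 were lower and 0 higher at an unadjusted p under 0.05. That difference was seen on both days, with cytosolic medians of -0.10 and -0.13. In limma, 0 genes of these 3 groups passed the adjusted test. The difference between the mitochondrial and the cytosolic ribosome was not tested.

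Many member genes start close to another gene on the opposite strand. In 24 of 65 members (36.9%) such a gene began within 1000 bases upstream, against 12.3% of all genes in the promoter table and 16.6% of those measured. The neighbour was measured for 17 of these members, and its log2 fold change was positive in 6, with a median of -0.0061. Mrpl46 and Mrps11 are each other's neighbour, so their pair is counted from both sides and with member values. Mrpl47 and the complex I gene Ndufb5 start 308 bases apart, and the fold changes were 0.17 ± 0.06 and 0.19 ± 0.06. Mrps12 starts 147 bases from Sars2, the mitochondrial seryl-tRNA synthetase gene, which was at 0.05 ± 0.12. Mrpl46 and Mrps11, of different subunits, start 42 bases apart and had fold changes of 0.10 and -0.0035. These examples were picked after their values were seen.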

How the data were processed

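Probe set intensities were used as deposited by the authors on a linear scale, 1 column per array. RMA is named per the submitters' processing notes, and its version and probe definitions are not given in the sources used here. The log2 of the deposited intensities was taken with no pseudocount added, and their linear scale was read from the values (array medians 98.0 to 103.2). The deposited array settings text, of a unit classed as other, gave hybridization time, chip lot and animal number, and no intensities were taken from it. Runs were inferred from it: a gap of more than 30 minutes between hybridization times began a new run, which made 4 runs. No detection calls were available, and a genotype mean of 73 members was above the median probe set (6.65). The number of arrays limits the precision; the median standard error was 0.0689.

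Of 22690 probe sets, 64 controls were left out. The 22626 others were tested two-sided for genotype alone by lmFit and eBayes (limma 3.58.1, R 4.3.3; threshold 0.05), with Benjamini-Hochberg adjustment over all of them, after tests on simulated data. Over all of them, 16 probe sets passed, 10 higher and 6 lower, and 1047 had an unadjusted p under 0.05. Of the tested sets 20380 had 1 symbol, 691 several and 1555 none, and 20351 matched RefSeq by Entrez identifier. Summaries and figures used Python 3.11.15.

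The members and lists were chosen with earlier results of these data known. Members named were those past the adjusted threshold or with arrays that did not overlap (0), the 6 positive and the 6 negative with the smallest p, 12 fixed by role, the 3 widest and the 3 narrowest in spread, and up to 4 whose probe sets disagreed most, and from each mitochondrial list the 2 genes with the smallest p. Of these, Mtg1 (0.12 ± 0.08) and Rars2 (0.08 ± 0.08) are given here only. The 12 arrays carry 12 animal numbers, so p-values measure the spread between mice. Alternatives were day, run and lot, probe set choice, scaling, the dim filter, the variance model, permutation and leaving out each array.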

Additional observations from a re-analysis of the deposited data

Results flagged for a closer look

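Single arrays stood apart within a genotype in 5 of 52 groups of 6 arrays, the groups being both genotypes of the 25 named members and of the mean over all members, by Dixon's ratio of gap to range at its 95% level. Chance alone marks about 5% of such groups. Mrpl47 had 2 of them, with transgenic 2 at 7.04 (the other 5 from 7.23 to 7.34) and wild-type 8 at 6.91 (the others from 7.07 to 7.15). Wild-type 10 was low in Mrpl58, at 7.89, where the others ran from 8.18 to 8.31. In Mrpl9 transgenic 2 was at 7.75 and the others between 7.99 and 8.09. Mrps5 was at 7.03 on transgenic 1, with the others from 7.21 to 7.28. All values are log2 intensities, and all 5 are the lowest of their group.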

How the results depend on the processing

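No member passed the adjusted threshold under any of 23 alternatives. The number of positive members (63) stayed between 56 and 66, where 45.9% to 54.4% of all genes were positive. The members' median log2 fold change (0.068) stayed between 0.041 (day 2 alone) and 0.091. At an unadjusted p under 0.05, the 10 higher members became 2 on day 2 alone (1.39% of all genes) and 5 with the run as a block (2.03%), and 6 to 13 when 1 array was left out (2.17% to 3.24%), the 6 being without transgenic 3 (2.22%). Lower members went from 0 to 1, Mrpl1, without the smaller chip lot (3.55% of all genes) or without transgenic 1 alone (3.14%; 0 to 1 over the arrays left out). Members whose arrays did not overlap went from 0 to 13 on day 1 (10.4% of all genes), 11 on day 2 (8.68%), 1 with the mean over probe sets (0.516%), 1 after quantile normalization (0.694%), 2 without the smaller lot (1.54%) and 0 to 2 when 1 array was left out (0.613% to 1.01%); the 2 came without transgenic 6. Of 575 named-member values 14 reversed sign. Mrpl1 became 0.013 on day 1 and 0.011 with the mean over probe sets, Mrpl23 0.00039 and Mrps28 0.059 on day 2, Mrps30 -0.12 on day 2 and -0.028 in the larger lot, Mrpl52 -0.023 with the mean over probe sets, and Mrpl58 -0.0013 in the larger lot. Leaving out 1 array moved Mrpl58 between -0.0053 and 0.11, Mrpl9 between -0.080 and 0.0095, Mrps28 between -0.072 and 0.0039 and Mrps30 between -0.053 and 0.13. The cause was not tested. No paired analysis was possible because the genotypes share no replicate numbers.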
